A study of Mus musculus with 9 samples.

Results

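The mRNAs described here are those of 10 mouse feedback genes of mitogen-activated protein kinase (MAPK) signalling: the dual-specificity phosphatase genes Dusp1, Dusp2, Dusp4, Dusp5, Dusp6, Dusp8 and Dusp10 and the Sprouty genes Spry1, Spry2 and Spry4. They were chosen by symbol, and they account for 10 of the 54325 gene symbols and 23 of the 140658 transcripts quantified. The RNA came from Neuro-2A (N2A) cells, an established mouse neuroblastoma line, and every group had been given 200 nM okadaic acid, which blocks several protein phosphatases, over 2 h. There were 3 groups of 3 libraries: input RNA taken without immunoprecipitation, RNA recovered with control rabbit IgG (rIgG IP), and RNA recovered with antibody to phosphorylated UPF1 (p-UPF1 IP). RNase I was used to cut the RNA into short pieces, so that each count is a fragment assigned to a transcript. No group was left untreated, so that an effect of okadaic acid on these mRNAs cannot be told apart from the state of the cells.

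MAPK cascades pass growth factor and stress signals through RAF, MEK and ERK kinases or through the JNK and p38 kinases. Dual-specificity phosphatases (DUSPs) shut the cascades off by removing the activating phosphates from the MAP kinases, and Sprouty proteins dampen the signal further up, between receptor tyrosine kinases, RAS and RAF. Most of these genes are induced by the pathway they restrain, and many of their mRNAs are short-lived. UPF1 is the RNA helicase at the centre of nonsense-mediated mRNA decay (NMD), and it is phosphorylated when decay of a bound mRNA is triggered. Setting the p-UPF1 IP against input asks which mRNAs were over- or under-represented on phosphorylated UPF1, and the rIgG IP gives the background of the precipitation.

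The transcripts of Dusp1 and of Dusp6 differ in the introns they keep or the exons they use, and the junctions that set them apart bear on the results for those genes. The lines that follow show 15 bases on either side of each junction in the GRCm38 genome, with the bases after the junction in capitals. Intron 2 of Dusp1 (chr17:26507205-26507573, 369 nt, minus strand) is spliced out of the coding transcript Dusp1-202 and kept in Dusp1-203. Intron 3 (chr17:26506651-26506984, 334 nt) is spliced out of Dusp1-202 and kept in Dusp1-204. For Dusp6 (plus strand), exon 3 from chr10:99265992 is joined to 3 different upstream ends.
Dusp1-202, exon 2 joined to exon 3: cctctctacgatcagGGGGGCCCAGTGGAG
Dusp1-203, exon 2 running into intron 2: cctctctacgatcagGTTAGTAGGAGTCCG
Dusp1-202, exon 3 joined to exon 4: ctattgacttcatagACTCCATCAAGGATG
Dusp1-204, exon 3 running into intron 3: ctattgacttcatagGTAAATGGAATAACT
Dusp6-201, exon 2 joined to exon 3: ccatttctttcatagATGAAGCCCGAGGCA
Dusp6-203, an exon within intron 2 joined to exon 3: tattcacaagttgagATGAAGCCCGAGGCA
Dusp6-204, exon 1 joined to exon 3: cgttctacctggaagATGAAGCCCGAGGCA

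Total counts were 25184464 to 29857955 for input, 5312526 to 6246110 for the p-UPF1 IP and 79010 to 474491 for the rIgG IP. A signal of 3 counts, the floor used here, was 0.100 to 0.119 CPM (counts scaled to a common library total) in input, 0.480 to 0.565 CPM in the p-UPF1 IP and 6.32 to 38 CPM in the rIgG IP; floors and intervals cover counting error only, because PCR copies are not independent molecules. The 10 genes together had 1905 to 1960 counts in an input library, 854 to 1087 in a p-UPF1 IP library and 5 to 24 in an rIgG IP library. Of 12 sympathetic neuroblast markers, 10 had at least 10 input counts in all, Nefl was at 0 and Nefm had 1 count, and the markers summed to 116 to 129 CPM in input and 178 to 201 CPM in the p-UPF1 IP. Astrocyte markers summed to at most 0.0397 CPM and microglia markers to 0.100 to 0.199 CPM in input, and both were at 0 in the p-UPF1 IP. Fibroblast markers reached 0.794 to 0.871 CPM in input and at most 0.753 CPM in the p-UPF1 IP, and endothelial markers 1.37 to 1.58 CPM and 0.829 to 1.76 CPM. Oligodendrocyte markers, mostly Mbp, were at 1.37 to 2.04 CPM in input and 9.93 to 13.1 CPM in the p-UPF1 IP, and their part in the results was not tested.

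In the p-UPF1 IP, 5 of the 10 mRNAs were higher than in input, 3 were lower and 2 did not pass the test. Dusp6, Spry4 and Dusp4 stood 2.46- to 2.79-fold above input, Spry1 and Dusp8 1.93- and 1.54-fold above, and Spry2, Dusp10 and Dusp5 fell below. Calls rest on an adjusted p under 0.05 in edgeR's quasi-likelihood test over 16919 genes, of which 26.3% were higher and 35.7% lower, so that the share of members that were higher exceeded that of all genes and the share that were lower was close to it. With a log2 fold change beyond 1 also required, 3 members were enriched (17.3% of all genes) and 2 depleted (26.5%). The median log2 fold change was 0.54 over the members and -0.42 over all genes. A fold change here compares the share of an mRNA in the p-UPF1 IP with its share in input, and neither gives an amount per cell. The labels do not say whether replicates were separate cultures, so that p-values measure only the spread between these libraries.

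**Figure D1:**
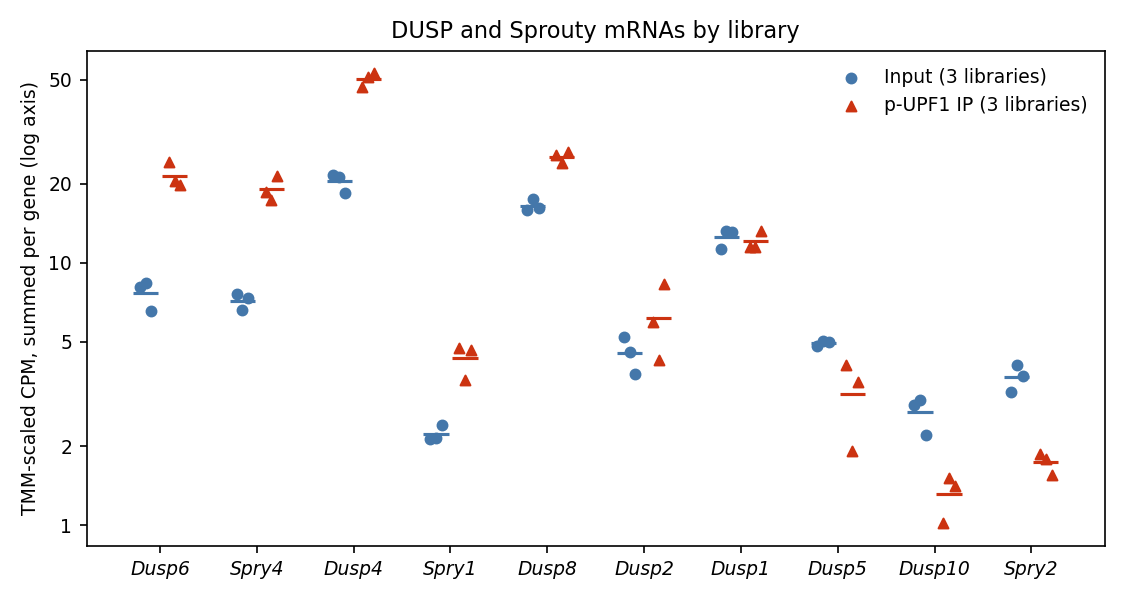
TMM-scaled CPM, summed per gene, of each member in the 3 input libraries (blue circles) and the 3 p-UPF1 IP libraries (red triangles), on a log axis, with horizontal bars at the group means. The groups are apart for every member but Dusp2 and Dusp1, with p-UPF1 IP above input from Dusp6 to Dusp8 and below it from Dusp5 to Spry2. How many of all genes have groups apart was not computed. Of all genes tested, 26.3% were called higher and 35.7% lower.

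Dusp6 encodes the cytoplasmic phosphatase that acts on ERK. Its level was 8.09, 8.39 and 6.55 CPM in input and 24.2, 20.4 and 19.7 CPM in the p-UPF1 IP (CPM scaled by TMM, here and for the other members). Every p-UPF1 IP library stood above every input library, and the log2 fold change of 1.48 (SE 0.12, adjusted p = 2.12e-06) was above that of 87.8% of the genes tested. Dusp4, a nuclear phosphatase that acts on ERK and JNK, lies at chr8:34807297-34819894 (plus strand) and has a single annotated transcript of 4 exons. It was at 21.7, 21.3 and 18.5 CPM in input and 46.9, 51.2 and 52.8 CPM in the p-UPF1 IP. The groups did not overlap, and the log2 fold change was 1.30 (SE 0.09, adjusted p = 5.09e-07). It also had the most counts of the members, with 1437 in input and 1025 in the p-UPF1 IP.

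The other nuclear DUSPs moved less or in the other direction. Dusp1, an immediate early phosphatase that acts on p38, JNK and ERK, was at 11.3, 13.3 and 13.1 CPM in input and 11.5, 11.5 and 13.2 CPM in the p-UPF1 IP. These ranges overlapped, and the log2 fold change of its summed count was -0.050 (SE 0.11, adjusted p = 0.691). Dusp2, an inducible nuclear phosphatase best known from lymphocytes (chr2:127336159-127338376, plus strand), was at 5.22, 4.55 and 3.78 CPM in input and 5.93, 4.25 and 8.31 CPM in the p-UPF1 IP. Its p-UPF1 IP libraries spread across the input range, with a log2 fold change of 0.45 (SE 0.23, adjusted p = 0.108); without p-UPF1 IP replicate 2 it was 0.70 and passed (adjusted p = 0.0194). Dusp5, the nuclear phosphatase specific to ERK (chr19:53529109-53542431, plus strand), was at 4.83, 5.05 and 4.99 CPM in input and 4.07, 1.92 and 3.52 CPM in the p-UPF1 IP. All 3 p-UPF1 IP libraries lay below input, replicate 2 furthest, and the log2 fold change was -0.66 (SE 0.22, adjusted p = 0.0242). Without p-UPF1 IP replicate 2 it was -0.36 and did not pass (adjusted p = 0.132), nor did it without input replicate 1 (adjusted p = 0.0519). An annotated antisense gene, AC137853.2, covers part of Dusp5, with at most 1 count in a library.

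The 2 phosphatases that act on JNK and p38 diverged. Dusp8 (Dusp8-201 at chr7:142079490-142095272, minus strand) was at 15.9, 17.5 and 16.2 CPM in input and 25.8, 24 and 26.5 CPM in the p-UPF1 IP. The groups were well apart and the libraries of each were close together, with a log2 fold change of 0.62 (SE 0.08, adjusted p = 7.95e-05). Dusp10 (Dusp10-201 at chr1:184034381-184075636, plus strand) was at 2.87, 2.99 and 2.21 CPM in input and 1.02, 1.51 and 1.41 CPM in the p-UPF1 IP. Its log2 fold change was -1.01 (SE 0.26, adjusted p = 0.00652), on 6, 11 and 10 counts after p-UPF1 IP.

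The Sprouty mRNAs were divided in the same way. Spry4 was at 7.61, 6.61 and 7.32 CPM in input and 18.6, 17.4 and 21.4 CPM in the p-UPF1 IP, a log2 fold change of 1.42 (SE 0.10, adjusted p = 1.04e-06). Spry1 (chr3:37639947-37644598, plus strand) was at 2.13, 2.14 and 2.41 CPM in input and 4.75, 3.57 and 4.65 CPM in the p-UPF1 IP, a log2 fold change of 0.95 (SE 0.19, adjusted p = 0.00137). Spry2 (chr14:105891947-105896819, minus strand) went the other way, from 3.22, 4.06 and 3.70 CPM in input to 1.86, 1.78 and 1.55 CPM in the p-UPF1 IP. Its log2 fold change was -1.08 (SE 0.21, adjusted p = 0.00106). All 3 proteins share the cysteine-rich Sprouty domain and act in the same pathway.

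AU-rich elements in the 3′ untranslated region (UTR), known marks of short-lived mRNAs, were present in Sprouty genes that moved in opposite directions. The letters TATTTAT, searched on the transcript strand of the 3′ UTR of the most-counted coding transcript, were found in 6 of the 10 members and in 27.8% of 12481 protein-coding genes tested, and the shorter ATTTA, which lies within it, in 10 of 10 and in 64.9%. The lines that follow show 30 bases of GRCm38 around such a site in Spry1 (chr3:37644409-37644438), Spry2 (chr14:105892091-105892120) and Dusp1 (chr17:26506158-26506187), with the element in capitals, extended in Dusp1 to TTATTTATT. Of the 6 members with TATTTAT, Spry1, Spry4 and Dusp8 were higher in the p-UPF1 IP, Spry2 was lower, and Dusp1 and Dusp2 were not called. Of the members without it, Dusp4 and Dusp6 were higher and Dusp5 and Dusp10 lower.
Spry1: attgtaaagaaTATTTATtatgcgaatctc
Spry2: agtgtaaagaaTATTTATttgaagttttat
Dusp1: gagctggtccTTATTTATTtaacacccccc

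The calls of Dusp1, Dusp2, Dusp5 and Dusp10, and the direction of Dusp1, depended on how the libraries were scaled. TMM assumes that most genes do not differ, and with library totals alone the median over all genes moved from -0.42 to -0.010 and the share of calls that were higher from 42.4% to 56.7%. Members higher in the p-UPF1 IP then numbered 7 and members lower 1, Spry2 (log2 fold change -0.67). Of all 16919 genes tested, 5709 were higher and 4364 lower under this scaling. Dusp1 (0.36, adjusted p = 0.0164) and Dusp2 (0.85, adjusted p = 0.00855) joined those that were higher, whereas Dusp5 (-0.26, adjusted p = 0.314) and Dusp10 (-0.61, adjusted p = 0.085) no longer passed. Dusp6, Spry4, Dusp4, Spry1 and Dusp8 were higher under both scalings. Relative to the median of all genes, Dusp1 lay above it under both.

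**Figure D2:**
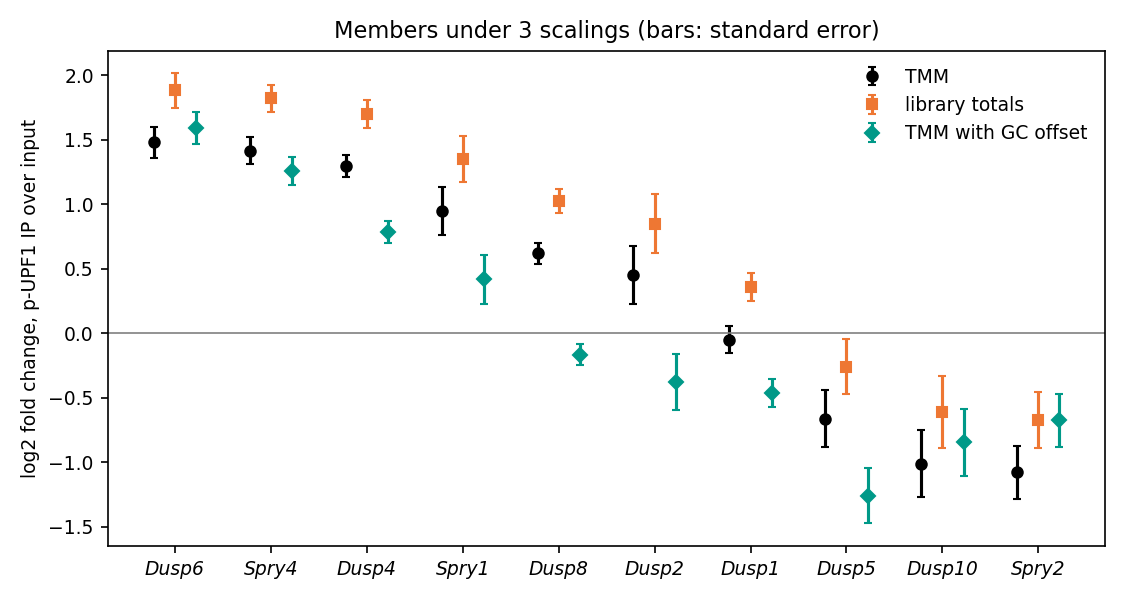
Log2 fold change of each member in the p-UPF1 IP over input, with standard errors as bars, after TMM scaling (black), with library totals alone (orange) and with TMM and a per-library offset for GC content (green). Dusp6, Spry4 and Dusp4 stay above 0 and were called under all 3 scalings, and Spry2 stays below 0 and was called under all 3, whereas Dusp8, Dusp2 and Dusp1 change sign.

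GC content moved with the p-UPF1 signal across all genes. Over 12481 protein-coding genes, which are not independent replicates and share the same 6 libraries, the log2 fold change had a Spearman's rho of 0.42 with the GC content of the transcript, 0.45 with that of the 3′ UTR (12309 genes), 0.21 with transcript length, 0.21 with the number of exons and 0.12 with 3′ UTR length. Among the members, Dusp2 (59.2% GC) and Dusp8 (58.8%) were the richest in GC and Spry2 (46.2%) and Dusp10 (48.4%) the poorest, against a median of 50.5% over those genes. Dusp6 (49.0%) and Spry4 (51.2%) lay near that median, and Dusp1 (54.9%), Dusp4 (56.0%), Spry1 (56.1%) and Dusp5 (56.7%) lay above it. With an offset for GC content in each library, an analysis added after seeing the data, rho fell to 0.083 and 3 members remained higher: Dusp6 (log2 fold change 1.59, adjusted p = 1.95e-06), Spry4 (1.26, adjusted p = 3.95e-06) and Dusp4 (0.78, adjusted p = 2.15e-05). Spry1 (0.42, adjusted p = 0.0831) and Dusp8 (-0.17, adjusted p = 0.102) no longer passed. Spry2 (-0.68), Dusp10 (-0.84) and Dusp5 (-1.26) were still lower, joined by Dusp1 (-0.47, adjusted p = 0.00455). Of the 16897 genes fitted with the offset, 4102 were higher and 5421 lower, so that the members' shares were then close to those of all genes. An offset of this kind also removes any difference in recovery by p-UPF1 that follows GC content, and these cannot be told apart here.

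**Figure D3:**
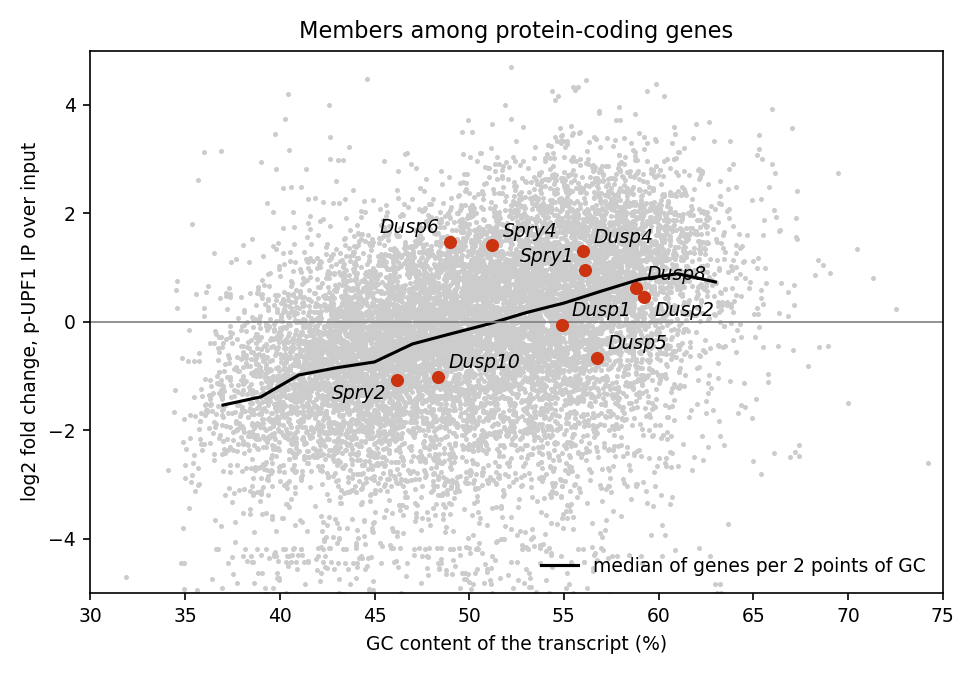
Log2 fold change in the p-UPF1 IP over input against the GC content of the transcript for protein-coding genes (grey; 212 genes beyond a log2 fold change of 5 are not drawn), with the members in red and the median of genes in bins of 2 percentage points as a black line. The line climbs over most of the GC range, Dusp6 and Spry4 stand well above it, and Dusp5 lies well below it.

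Scaled to transcript length, the order of the members differed between input and the p-UPF1 IP. Each transcript's estimated count was divided by its own length before summing, so the order depends on the estimated split between transcripts. Dusp8-202 (853 nt) and Dusp6-203 (876 nt) are short, and 7.69% and 7.84% of their 35-nt windows are their own. The places of Dusp8 and Dusp6 in this order are therefore uncertain. In input, Dusp4 (7.49 ± 0.63 CPM per kb, SD, n = 3), Dusp1 (7.03 ± 0.52) and Dusp8 (6.38 ± 0.50) led, and neighbours in this order overlapped. Dusp2 (3.06 ± 0.37) and Dusp6 (2.78 ± 0.37) overlapped each other, and Dusp5 (2.00 ± 0.046), Spry2 (1.75 ± 0.20), Spry4 (1.51 ± 0.11), Dusp10 (0.96 ± 0.15) and Spry1 (0.86 ± 0.011) came last, where Spry2 overlapped Spry4 and Dusp10 overlapped Spry1. In the p-UPF1 IP the first 4 were Dusp4 (18.4 ± 1.1 CPM per kb, SD, n = 3), Dusp8 (14.2 ± 0.5), Dusp6 (11.8 ± 1.5) and Dusp1 (6.59 ± 0.72), each apart from the next. Dusp2 and Spry4 (both 4.03) overlapped, and Spry1 (1.76 ± 0.26), Dusp5 (1.28 ± 0.45), Spry2 (0.83 ± 0.078) and Dusp10 (0.61 ± 0.23) overlapped each with the next.

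The summed count of Dusp1 hid a difference in the counts assigned to its transcripts. In input, the 2 transcripts that keep an intron, Dusp1-203 and Dusp1-204, took 875 of 883 Dusp1 counts (99.1%, exact 95% interval 98.2% to 99.6%). In the p-UPF1 IP their share was 41.1% of 246 counts (exact 95% interval 34.8% to 47.5%), and the rest belonged to the spliced coding transcript Dusp1-202, whose junctions are printed above. Library by library the intron-keeping share was 98.8%, 100% and 98.5% in input against 41.2%, 36.9% and 44.7% after p-UPF1 IP, so that the groups were far apart; with 3 libraries against 3, an exact permutation test cannot give a two-sided p below 0.1.

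Dusp1-202 had 3, 0 and 5 counts in input against 40, 53 and 52 after p-UPF1 IP. Its log2 fold change was 5.60 (SE 0.97, adjusted p = 0.0107), and its ratio of summed counts, scaled by library totals, was 83.5 (exact 95% interval 41.3 to 197). Dusp1-203 had 207, 244 and 277 counts in input against 22, 25 and 31 after p-UPF1 IP, a log2 fold change of -1.73 (SE 0.18, adjusted p = 0.00184). Dusp1-204 had 49, 53 and 45 counts in input against 6, 6 and 11 after p-UPF1 IP, a log2 fold change of -1.19 that did not pass (adjusted p = 0.0809). In the rIgG IP, 6 of the 8 Dusp1 counts were on Dusp1-202, 1 on Dusp1-204 and 1 on Dusp1-206, so that the spliced transcript also led in the control precipitation, on few counts. Among all 7765 retained-intron transcripts tested, 7.71% were higher and 11.2% lower in the p-UPF1 IP (median log2 fold change -1.06), against 10.2% and 20.1% of 23817 protein-coding transcripts (median -0.79). Only 2.35% of the 35-nt windows of Dusp1-202 are found in no other Dusp1 transcript, against 17.5% for Dusp1-203 and 45.7% for Dusp1-204. Most fragments were therefore shared out by Salmon's estimate, and the split between these transcripts is uncertain. The intervals given for the Dusp1 transcripts leave out the error of this assignment and the spread between libraries. The neighbour Ergic1, on the other strand, overlaps only Dusp1-201 and Dusp1-205 of the Dusp1 transcripts, which had 0 counts in every library.

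**Figure D4:**
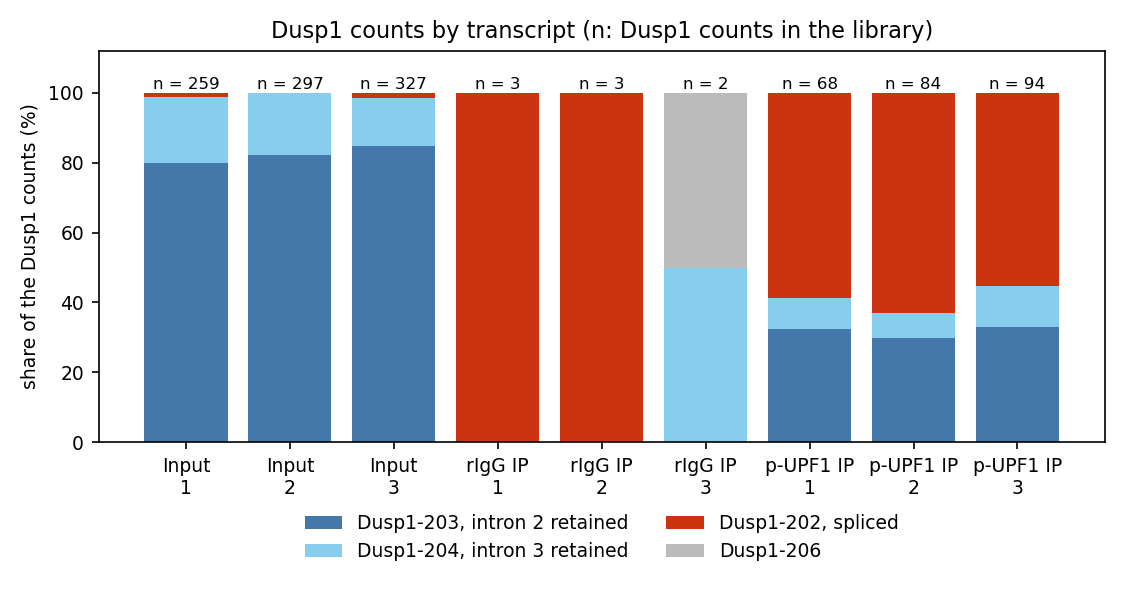
Share of the Dusp1 counts (%) assigned to each transcript in each of the 9 libraries, with the number of Dusp1 counts above each bar. Transcripts that keep an intron (blues) fill the input bars and under 45% of the p-UPF1 IP bars, where the spliced Dusp1-202 (red) takes the rest; the rIgG IP bars rest on 2 or 3 counts each.

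Of the 23 member transcripts, 18 had enough counts to test; 5 were higher (9.44% of the 42616 transcripts tested) and 3 were lower (17.2%). Those higher were Dusp1-202, Dusp4-201, Dusp6-203, Dusp8-202 and Spry4-201, and those lower were Dusp1-203, Dusp10-201 and Spry2-201. Dusp4-201 (log2 fold change 0.99, adjusted p = 0.0019), Spry4-201 (1.11, adjusted p = 0.00319) and Spry2-201 (-1.37, adjusted p = 0.0144) are the only annotated transcripts of their genes, and Dusp10-201 (-1.49, adjusted p = 0.0225) held 188 of the 188 input counts of Dusp10. These calls depended on the fit. With all 9 libraries fitted jointly 2 member transcripts were higher (Dusp1-202 and Dusp6-203) and 1 lower (Dusp1-203), and the adjusted p was 0.155 for Dusp4-201, 0.111 for Dusp8-202, 0.221 for Spry4-201, 0.0792 for Dusp10-201 and 0.105 for Spry2-201. With library totals 7 were higher, Dusp6-201 and Dusp8-201 in addition, and 1 lower, Dusp1-203.

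Dusp6-203, a short non-coding transcript that starts within intron 2 of the coding Dusp6-201, had 0 counts in every input and rIgG IP library but 35, 37 and 30 after p-UPF1 IP. Its p-UPF1 IP level was at least 157-fold higher than a floor of 3 counts over the input group, on library totals (adjusted p = 0.00241). It took 21.4% to 24.8% of the Dusp6 counts in the p-UPF1 IP. The coding Dusp6-201 had 184, 186 and 163 counts in input against 108, 61 and 110 after p-UPF1 IP, a log2 fold change of 0.58 that did not pass (adjusted p = 0.205). In p-UPF1 IP replicate 2 a further 51 counts fell to Dusp6-204, which had 0 in the other p-UPF1 IP libraries; without that replicate Dusp6-201 passed (log2 fold change 0.90, adjusted p = 0.0247). Of the 35-nt windows of Dusp6-203, 7.84% are its own, as are 1.16% of those of Dusp6-201 and 1.42% of those of Dusp6-204, so the split between them is uncertain and the summed count of Dusp6 is the firmer value.

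For Dusp8, the partial transcript Dusp8-202, of 853 nt, held a larger share in the p-UPF1 IP. It took 16.4%, 18.6% and 20.1% of the Dusp8 counts in input against 36.8%, 37.1% and 35.1% after p-UPF1 IP, with no overlap. Its log2 fold change was 1.30 (SE 0.18, adjusted p = 0.00458), and that of the full-length Dusp8-201 was -0.039 (SE 0.11, adjusted p = 0.806); with library totals Dusp8-201 was also higher (0.67, adjusted p = 0.0117). Of the windows of Dusp8-202, 7.69% are found in no other Dusp8 transcript. The 3 Spry1 transcripts could not be told apart: input replicate 1 had 39 counts on Spry1-203, replicate 2 had 48 on Spry1-201 and replicate 3 had 60 on Spry1-202, while the summed counts of the 3 libraries were 49, 48 and 60. Dusp2-201 held 289 of 316 input counts of Dusp2 and 119 of 125 in the p-UPF1 IP (log2 fold change 0.20, adjusted p = 0.671). Dusp5-201, the only transcript of Dusp5, had a log2 fold change of -0.95 that did not pass (adjusted p = 0.0817).

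Against the rIgG IP, which shares the p-UPF1 IP libraries with the comparison above, 4 members were higher in the p-UPF1 IP (17.9% of 12033 genes tested) and 0 were lower (5.59%), in edgeR; with an unadjusted p under 0.05, 5 were higher and 0 lower, and DESeq2 called 0 lower too. The 4 were Dusp4, Dusp6, Spry4 and Spry1. Over all genes tested in this comparison, the median log2 fold change was 0.89. Dusp4, Dusp6 and Spry4 lay above 76.0%, 75.8% and 74.7% of those genes, and Spry1, with 0 rIgG IP counts, above 96.8%. The members had 44 counts in all in the rIgG IP libraries, 20 of them from Dusp8. Dusp4 had 6, 1 and 0 counts in the rIgG IP against 277, 373 and 375 after p-UPF1 IP, a ratio of 6.32 on library totals (exact 95% interval 3.05 to 15.7) and a log2 fold change of 2.72 (SE 0.43, adjusted p = 3.6e-05). Dusp6 had 1 count in each rIgG IP library, with a ratio of 6.21 (2.11 to 30.2) and a log2 fold change of 2.69 (SE 0.60, adjusted p = 0.00172). Spry4 had 0, 3 and 0 counts, with a ratio of 5.59 (1.90 to 27.2) and a log2 fold change of 2.53 (SE 0.68, adjusted p = 0.00834). Without rIgG IP replicate 1, the deepest, Dusp6 (adjusted p = 0.0605) and Spry4 (adjusted p = 0.207) did not pass, and 1 member, Dusp4, was higher.

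For Dusp8, the level in the rIgG IP lay close to that in the p-UPF1 IP. It had 11, 7 and 2 counts in the rIgG IP, 26.4 CPM over the group on library totals, against 14.3 CPM in input and 29.3 CPM in the p-UPF1 IP. The ratio of the p-UPF1 IP to the rIgG IP was 1.11 (exact 95% interval 0.712 to 1.83) with a log2 fold change of 0.22 (SE 0.33, adjusted p = 0.648), and its sign changed under other scalings. That of the rIgG IP to input was 1.84 (1.12 to 2.86), with a log2 fold change of 0.66 that did not pass (SE 0.30, adjusted p = 0.423). For Dusp1 the rIgG IP held 3, 3 and 2 counts, and the p-UPF1 IP was 1.33 times as high (0.663 to 3.11).

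The depth of the rIgG IP limited the remaining members. Spry1 had 0 counts there against 28, 26 and 33 after p-UPF1 IP. This was at least 1.25-fold higher than a floor of 3 counts over the rIgG group, which is 3.95 CPM. Its adjusted p was 0.0446, but most alternatives lost the call, with an adjusted p of 0.0581 to 0.212. These were DESeq2, RLE factors, filterByExpr, the joint fit, the replicate block, and removal of any rIgG IP library or of p-UPF1 IP replicate 1 or 3. Dusp2, Dusp5 and Spry2 each had 1 count in the rIgG IP, with ratios of 5.39 (exact 95% interval 0.95 to 215), 2.72 (0.470 to 109) and 1.51 (0.254 to 61.3). Dusp10 had 0 counts in the rIgG IP, and its p-UPF1 IP level of 1.53 CPM lay under the rIgG floor, so that no fold is given. For the rIgG IP over input, edgeR called 0 members higher (0.584% of 16280 genes tested) and 0 lower (0.313%); with an unadjusted p under 0.05, 0 were higher and 2 lower (Dusp4 and Dusp10), and DESeq2 called 0, with 1 higher and 0 lower at that p.

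Other genes of the MAPK pathways, listed by symbol, moved in both directions in the p-UPF1 IP over input. Over all 16919 genes tested, 26.3% were higher and 35.7% lower, with a median log2 fold change of -0.42. Of 21 other DUSP, Sprouty and Spred genes, 14 were tested, 4 were higher and 5 lower, with a median log2 fold change of 0.10. Dusp3, a small phosphatase without a MAPK-docking domain, had a log2 fold change of 1.38 (SE 0.08) and Dusp7, a cytoplasmic ERK phosphatase closely related to Dusp6, of 1.08 (SE 0.18), whereas Styx, a catalytically inactive relative, had -0.86 (SE 0.18) and Dusp16, which acts on JNK, -1.12 (SE 0.11). Upstream of the cascade, 21 of 26 receptor tyrosine kinase (RTK) and RAS genes were tested, 7 were higher and 13 lower (median -0.74). Those higher included the adaptor Frs3 (2.77, SE 0.23) and the phosphatase Ptpn11 (1.86, SE 0.08), and those lower included the neurotrophin receptor Ntrk3 (-1.86, SE 0.11).

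Of the 21 ERK cascade genes, 6 were higher and 9 lower (median 0.012), with the scaffold Ksr1 (log2 fold change 2.55, SE 0.29) and Mapk7, which encodes ERK5 (2.13, SE 0.11), at one end and Shoc2 (-2.11, SE 0.10) and the kinase gene Rps6ka6 (-2.94, SE 0.28) at the other. In the JNK and p38 cascades, 28 of 29 genes were tested, 10 were higher and 5 lower (median 0.17), from Map3k11 (2.00, SE 0.14) and Map2k7 (1.80, SE 0.08) to Taok1 (-1.90, SE 0.08) and Map3k2 (-2.11, SE 0.12). Among ERK target genes, 15 of 17 were tested, 7 were higher and 5 lower (median 0.13), from the transcription factor Ets2 (2.19, SE 0.08) and the cyclin gene Ccnd1 (1.46, SE 0.08) to Elk3 (-1.26, SE 0.16) and Etv1 (-1.51, SE 0.20). With library totals the counts higher and lower became 4 and 2 for the other DUSP, Sprouty and Spred genes, 8 and 10 for RTK and RAS genes, 11 and 7 for the ERK cascade, 19 and 4 for JNK and p38, and 8 and 5 for ERK targets. With the GC offset they became 2 and 2, 5 and 12, 3 and 6, 11 and 7, and 5 and 6 in the same order, and Dusp7 (log2 fold change 0.41, adjusted p = 0.069) and Styx (0.11, adjusted p = 0.638) no longer passed. With TMM scaling, the members' median of 0.54 was above that of each of these lists, a description and not a test. The medians were not compared under the GC offset, with which 3 members were higher and 4 lower. Over all genes, 5709 were higher and 4364 lower with library totals, and 4102 and 5421 with the GC offset.

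**Figure D5:**
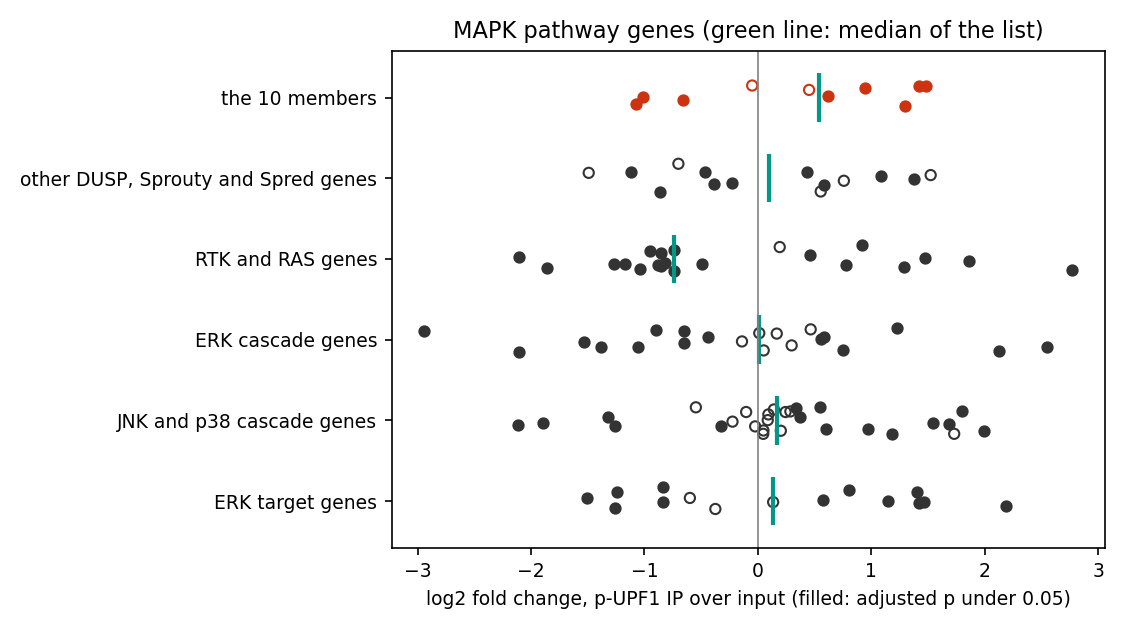
Log2 fold change in the p-UPF1 IP over input of the 10 members (red) and of the tested genes of 5 MAPK lists (black), filled where the adjusted p was under 0.05, with the median of each list as a green line. Every list spans both directions, and the RTK and RAS genes have the lowest median, -0.74, beside -0.42 over all genes tested.

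Dusp4 had the most counts of the members over the input and p-UPF1 IP libraries, and genes like it over these 6 libraries were sought among 7583 genes with a mean of at least 20 counts in each group. By the root-mean-square distance between mean-centred log2 CPM, Cbfa2t3 (0.0351) and Clcn6 (0.0499) were among the nearest. Their log2 fold changes in the p-UPF1 IP over input were 1.29 (SE 0.09) and 1.35 (SE 0.09), beside 1.30 (SE 0.09) for Dusp4, a likeness that the choice by these same libraries fixes.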

How the data were processed

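RIP-seq libraries of N2A cells were trimmed with fastp, mapped with STAR 2.7.0f to GRCm38.p6 and quantified with Salmon 0.13.1 by the authors, who deposited estimated counts per transcript as whole numbers, with no scaling between libraries; the rounding step, the strand setting and any pooling are not given in the sources used here. The 9 column names gave the library, and groups and replicate numbers come from the sample labels.

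Counts were summed per gene symbol, and pairs of groups were compared with edgeR 4.0.16 in R 4.3.3 (TMM, quasi-likelihood test, 6 libraries, summed count of at least 10, Benjamini-Hochberg adjustment over all features tested). Transcripts were tested in the same way. The SE of a log2 fold change was taken from its F statistic. DESeq2 1.42.0, RLE factors, scaling by library totals, filterByExpr, no filter, a joint fit of all 9 libraries, a block on the replicate number, removal of the 10 most-counted features and removal of each library were tried as alternatives. The GC offset, a loess trend (span 0.3) of log2 counts on transcript GC content in each library, was added after seeing the data. Replicate libraries differed beyond sampling noise (chi-square per degree of freedom 3.62 to 15.6). Coordinates, transcript types and sequences come from GENCODE M21 (GRCm38), to which 139921 transcripts were matched by identifier; the study used a later release. The members, the lists of pathway and marker genes and the rules for genes named were chosen with earlier results of these data known. The genes named are all members with their most-counted and called transcripts, from each pathway list the 2 genes with the largest and the 2 with the smallest log2 fold change among those called, and the 3 genes nearest to Dusp4; 2 genes that these rules name are not reported here. Both tests were run on simulated data; the summed-count test recovered most of the changed genes, whereas the transcript test estimated the folds but, when few transcripts changed, called few or none of them.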

Additional observations from a re-analysis of the deposited data

How the results depend on the processing

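In the p-UPF1 IP over input, Dusp4, Dusp6, Spry4 and Spry2 kept their direction and their call under every alternative run. Members higher numbered 5 to 6 when each library was left out in turn and 3 with the GC offset, and members lower numbered 2 to 3 and, with library totals, 1. The log2 fold change of Dusp1 changed sign with library totals (0.36) and in 4 of the fits that left out a library (range -0.11 to 0.022), that of Dusp2 with the GC offset (-0.38), that of Dusp8 with the GC offset (-0.17), and that of Styx with the GC offset (0.11). Over the rIgG IP, members higher ranged from 1, without rIgG IP replicate 1, to 4, and Dusp8 was at -0.058 with DESeq2, -0.059 with RLE factors, -0.14 with filterByExpr and -0.010 with all 9 libraries. For the rIgG IP over input, Dusp1 was at 0.028 with DESeq2 and 0.032 with RLE factors and ranged from -0.44 to 0.19 when a library was left out, and Spry4 from -9.67 to 0.26, the highest of each without rIgG IP replicate 1. Member transcripts higher were 2 in the joint fit of 9 libraries and 2 with the replicate block, and member transcripts lower were 1 in each of these; with library totals 7 were higher and 1 lower. Dusp8-201 was at 0.088 with DESeq2 and RLE factors, 0.67 with library totals, 0.069 with filterByExpr, 0.021 without the 10 most-counted features and -0.047 to 0.064 when a library was left out; Dusp2-202 was at 0.092 with library totals, and Dusp2-201 ranged from -0.078 to 0.48. The cause of these changes was not tested.

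The labels do not say whether same-numbered libraries were paired. Deviations of same-numbered p-UPF1 IP and input libraries had a mean correlation of 0.030 over 10613 genes, and 2 of 3 libraries were closest to their own number. With 3 libraries per group, these values cannot decide whether the libraries were paired. With the replicate block, 5 members were higher and 3 lower than input, as without it; Dusp1-202 (adjusted p = 0.0791), Dusp6-203 (0.108), Dusp8-202 (0.0803), Dusp10-201 (0.207) and Spry2-201 (0.163) no longer passed. Depth limits the rIgG IP most, where 3 counts are 6.32 CPM or more and most members lie near that floor, and at transcript level the spread between replicates limits what could be called.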
